A study of Mus musculus with 8 samples.

Results

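Nascent mesoderm cells of E7.5 mouse chimaeras were selected on their measured UMIs (unique molecular identifiers, counted transcripts). A member had at least 1 Mesp1 UMI, at least 1 UMI of Mixl1, Lhx1 or Snai1 (called partner genes here) and no Etv2 UMI, and the cells considered held 1500 UMIs or more, with mitochondrial genes giving no more than 30% and ribosomal protein genes no more than 35% of them. The rule found 1989 cells among 12655 kept cells. Of these, 1340 of 5513 came from the Tet-TKO library and 649 of 7142 from the WT host library. Droplet-based 3′ RNA-seq had been carried out on chimaeras of ES cells that lack Tet1, Tet2 and Tet3 (genotype TET TKO in the labels, background C57BL/6J-129Sv) in wild-type C57BL/6J host blastocysts. The ES cells were a single line that carried H2B-tdTomato under the constitutive CAG promoter. The embryos were pooled and sorted into tdTomato+ Tet-TKO cells and tdTomato- WT host cells, so each library holds several embryos. Each genotype had 1 library at E7.5. At E8.5 there were 4 of Tet-TKO cells and 2 of host cells. Genotype, strain and origin from cultured ES cells go together in every library and cannot be told apart. Any difference in sex between the single ES line and the pooled host embryos goes with them too.

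During gastrulation, epiblast cells enter the primitive streak, lose their epithelial shape and leave it as migrating mesoderm. Mesp1 is a transcription factor that is switched on briefly as these cells leave the streak, Mixl1 and Lhx1 are homeobox genes of mesendoderm and early mesoderm, and Snai1 represses epithelial genes. Etv2 starts the blood and endothelial programme. Nodal signalling, its co-receptor Tdgf1 (Cripto) and its feedback inhibitors of the Lefty family pattern the streak, while Fgf8 drives cells away from it. TET enzymes oxidise 5-methylcytosine and so open a route to removing DNA methylation.

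The 2 E7.5 libraries held 105670868 and 103814649 UMIs. The median UMIs per member were 20147.5 (Tet-TKO) and 14516 (WT host), close to the median of all kept cells (20741 and 14192.5). Mitochondrial UMIs were a median of 1.17% and 1.08% of member UMIs. The libraries shared 11 cell barcodes, of which none belonged to a member. A tdTomato UMI was found in 858 of 1340 Tet-TKO members (64.0%) and in 8 of 649 WT host members (1.23%). As every comparison at E7.5 has 1 library on each side, no test was made there. Intervals are exact 95% binomial or Poisson intervals and cover counting error only.

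Nascent mesoderm cells made up a larger share of the Tet-TKO library than of the WT host library. The share was 24.3% (95% interval 23.2 to 25.5) of kept Tet-TKO cells and 9.09% (8.43 to 9.78) of kept WT host cells, a ratio of 2.67. With every cell thinned to 5000 UMIs, which left out 738 and 480 shallower cells, the share was 20.1% against 5.42%, a ratio of 3.70. At least 2 of 5 extraembryonic ectoderm markers (Elf5, Wnt7b, Rhox6, Rhox9 and Ascl2) were found in 30 Tet-TKO and 1818 WT host cells. At least 3 of 6 visceral endoderm markers (Amn, Cubn, Apoa4, Afp, Rbp4 and Apob) were found in 39 and 625. Cells that met either cut are called cells with extraembryonic markers, or extraembryonic cells, here. With such cells left out of the total unless they were members, the shares were 24.6% and 13.6%, a ratio of 1.80. Without the Etv2 condition the cells were 39.6% and 12.1%. An Etv2 UMI was found in 844 of 2184 Tet-TKO cells with Mesp1 and a partner gene (38.6%, 36.6 to 40.7) and in 214 of 863 WT host cells (24.8%, 21.9 to 27.8). After thinning these values were 15.9% (13.8 to 18.1) and 14.0% (10.9 to 17.7), so their intervals overlapped at equal depth. An Etv2 UMI was not limited to cells with Mesp1. Before thinning it was found in 56 of 270 Tet-TKO cells (20.7%, 16.1 to 26.1) with at least 2 Sox2 UMIs and no T or Eomes UMI.

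**Figure D1:**
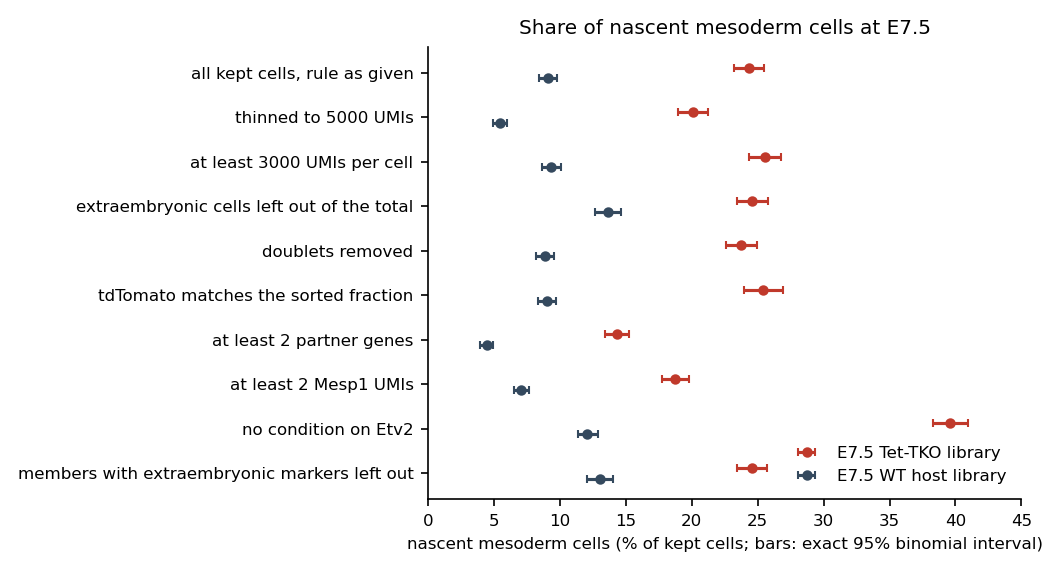
Share of kept E7.5 cells that pass the rule (x axis, percent) in the Tet-TKO library (red) and the WT host library (dark blue), with the rule as given and under each alternative (y axis). Bars are exact 95% binomial intervals, and the Tet-TKO share lies above the WT host share in each line, also with extraembryonic cells left out of the total (24.6% against 13.6%).

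At the edge of the rule, 307 Tet-TKO and 145 WT host members had exactly 1 Mesp1 UMI. Just outside it, 380 and 254 cells had Mesp1 and no Etv2 but no partner UMI, and 436 and 126 cells were kept out by a single Etv2 UMI. The next values describe genes that the rule used. Mesp1 (ENSMUSG00000030544, chromosome 7 of mm10, 79792241 to 79793788) stood at 475 CPM (UMIs of the gene per 1000000 UMIs of the summed cells) in Tet-TKO and 380 CPM in WT host members. Mixl1 stood at 130 CPM against 65.2 CPM. Lhx1 had 99.7 CPM against 95.3 CPM and Snai1 had 79.5 CPM against 86.2 CPM.

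Of the partner genes, Mixl1 was found in a larger share of Tet-TKO members, which is a description since the rule used these genes. A Mixl1 UMI was found in 885 of 1340 Tet-TKO members (66.0%) and in 234 of 649 WT host members (36.1%). After thinning, the shares with Mixl1 were 60.9% and 36.6%. Lhx1 was found in 51.6% and 53.0% (46.1% and 49.0% after thinning), and Snai1 in 65.1% and 69.5% (46.0% and 54.0% after thinning). All 3 partner genes were found in 24.0% of members against 9.86% in the host, and after thinning in 10.2% and 5.54%. T (brachyury), the T-box factor of the streak, was not used by the rule. A T UMI was found in 981 Tet-TKO members (73.2%, 70.8 to 75.6) and 376 WT host members (57.9%, 54.0 to 61.8). After thinning this was 54.6% (51.4 to 57.8) and 46.8% (41.6 to 52.1). Ectoderm reference cells were chosen for at least 2 Sox2 UMIs and the absence of T and Eomes. Among them, Mixl1 was found in 5.19% of 270 Tet-TKO cells and 0.880% of 682 WT host cells. Their median depths were 23485 and 14277 UMIs. The choice did not leave out cells with extraembryonic markers. A list of 6 extraembryonic ectoderm markers summed to 132 CPM in the host cells of this set, against 11.7 CPM in its knockout cells. For 8 visceral and yolk sac endoderm markers the sums were 182 against 8.60 CPM. Percentages of this set, here and below, therefore do not compare the genotypes like for like.

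Members also differed from the other cells in genes that the rule did not use. Beyond the rule genes, the 10 genes highest in members over all other kept cells of their library were Dll1, Pcdh19, Hoxb1, Car3, Dll3, Frzb, Cdx4, Rasgrp3, T and Hoxb3os. The Notch ligand Dll1 stood at 25.8 CPM in Tet-TKO members against 6.91 CPM in the other cells, and at 40.5 CPM in WT host members against 5.57 CPM in the other cells. The 10 lowest were Spink1, Utf1, Crb3, Pou3f1, Cldn6, Sox2, Cldn7, Eras, Sox3 and Rab25, among them factors of epiblast and ectoderm (Sox2, Sox3, Pou3f1) and epithelial genes (Crb3, Cldn6, Cldn7). Sox2 had 9.97 CPM in Tet-TKO members and 35.05 CPM in the other cells, and 14.0 CPM and 74.5 CPM in the WT host library. As the cells were chosen by their counts, these differences are a description.

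Markers of other cell types were also counted in members, with larger sums in the host for the extraembryonic and erythroid lists. Their source was not tested. The 8 visceral and yolk sac endoderm markers summed to 11.6 CPM in Tet-TKO and 223 CPM in WT host members, with Apob at 0 in the Tet-TKO members. The 6 extraembryonic ectoderm markers summed to 11.9 and 38.7 CPM, and the 7 erythroid markers to 1.06 and 22.6 CPM, with Hba-x at 0 in Tet-TKO members. In the other cells of the host library the same lists summed to 1556, 301 and 194 CPM. Endothelial markers (6 genes) summed to 58.6 and 62.6 CPM with Sox18 at 0 in both, and ectoderm markers (7 genes) to 72.3 and 79.0 CPM. The 3 Tet-TKO and 34 WT host members that met either cut for extraembryonic markers were also left out, after the data had been seen. Without them the endoderm list summed to 9.63 and 36.2 CPM and the extraembryonic ectoderm list to 11.8 and 11.7 CPM. The ectoderm list then summed to 72.4 and 67.9 CPM.

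Over the summed members, 7445 features had at least 10 CPM in 1 genotype and were no rule genes. Of these, 73 (0.981%) were at least 2-fold higher in Tet-TKO members and 139 (1.87%) at least 2-fold lower. These are the shares to set beside the E7.5 counts of each gene list below. Some genes stand in more than 1 list, so the list counts are not separate results. The median log2 ratio of Tet-TKO over WT host was -0.07. Scaling by TMM factors moved all ratios up by 0.12 and gave 88 higher and 111 lower. Median-of-ratios factors moved them by 0.13 and gave 91 higher and 109 lower, so that 45.5% of the genes past the fold were higher, against 34.4% without such factors. Of the 73 higher genes, 14 were annotated pseudogenes, against 88 of all 7445. Without the members that carried extraembryonic markers the counts were 74 higher and 120 lower. Of the 139 lower genes, 39 were at least 2-fold more abundant in the other cells of the host library than in its members, and the part of such cells in the ratios was not tested.

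The Nodal pathway held large ratios in both directions. Lefty2 (ENSMUSG00000066652, chromosome 1, 180893108 to 180899103), a secreted Nodal inhibitor of mesoderm, stood at 18.8 CPM (17.2 to 20.6; 478 UMIs) in Tet-TKO members and 129 CPM (122 to 137; 1281 UMIs) in WT host members. It was 6.86-fold lower in Tet-TKO members, a log2 ratio of -2.78 (-2.93 to -2.63). A Lefty2 UMI was found in 154 Tet-TKO members (11.5%, 9.83 to 13.3) and 213 WT host members (32.8%, 29.2 to 36.6), and in 2.22% and 1.03% of the ectoderm reference cells. After thinning it was 8.14% and 31.6%. Outside the members the level was 7.24 CPM in the other Tet-TKO cells and 7.69 CPM in the other WT host cells. With extraembryonic cells left out it was 7.29 and 12.2 CPM, a log2 ratio of -0.74, and in cells with T and Eomes or Mixl1 but no Mesp1 and no Etv2 UMI (the streak set) the ratio was -1.70. A direct test of whether the ratio differs between members and other cells was not possible with 1 library each.

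Tdgf1 (ENSMUSG00000032494, chromosome 9, 110939603 to 110946158), the Nodal co-receptor, went the other way, with 249 CPM (243 to 255) against 104 CPM (98.2 to 111), a log2 ratio of 1.25 (1.16 to 1.35). A Tdgf1 UMI was found in 59.6% of the members with the knockout and 30.7% of the host members (59.9% and 32.7% after thinning). The shares were 41.5% and 5.72% in ectoderm reference cells, with the limit stated for that set. The gene was higher outside the members too. In the other cells it had 167 CPM against 18.98 CPM, or 169 and 31.05 CPM with extraembryonic cells left out. Cer1, a secreted antagonist made mainly by endoderm, had 5.83 CPM against 19.3 CPM (-1.72, -2.04 to -1.41). Nodal itself stayed just below the level filter, with 9.70 CPM (246 UMIs) in Tet-TKO and 2.22 CPM (22 UMIs) in WT host members. Lefty1 was rare in both, at 1.06 and 0.908 CPM. Of 17 listed genes, 8 were compared, with 1 higher (Tdgf1), 2 lower (Lefty2 and Cer1) and a median of -0.27. Tdgf1 came inside the fold under at least 1 alternative, with a lowest log2 ratio of 0.98. The receptor Acvr2b (94.0 and 118 CPM) and the signal transducer Smad4 (88.3 and 105 CPM) lay within the fold.

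**Figure D2:**
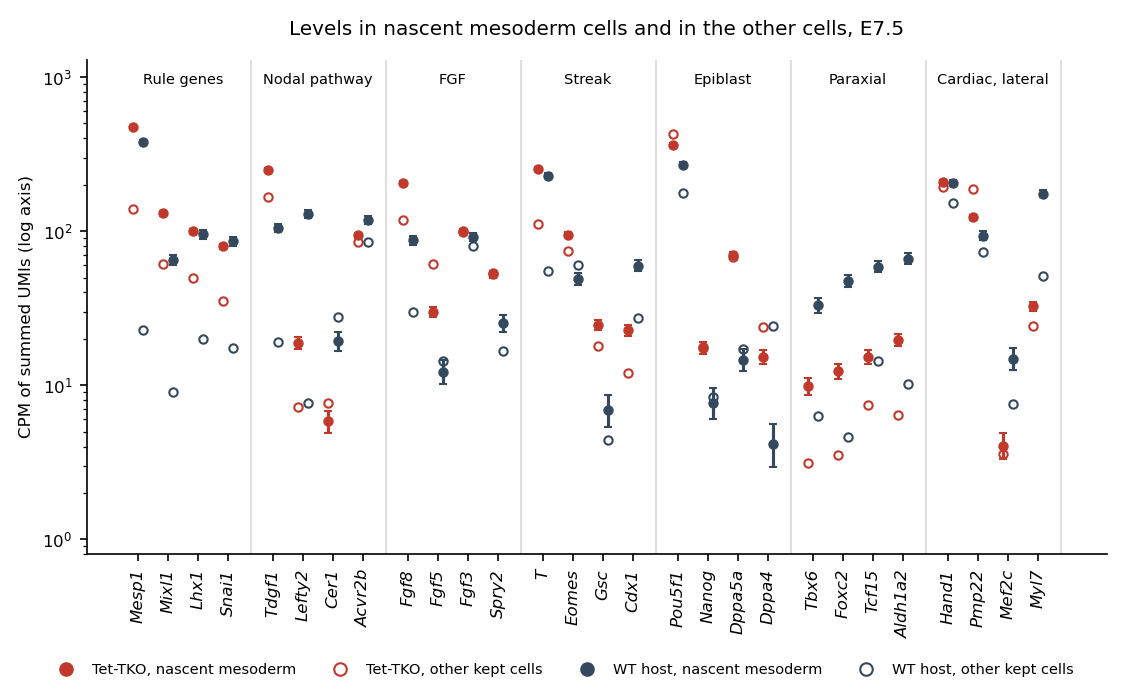
Level of 28 genes (y axis, CPM of summed UMIs, log scale) in nascent mesoderm cells (filled, with exact 95% Poisson intervals) and in the other kept cells (open) of the E7.5 Tet-TKO (red) and WT host (dark blue) libraries. Lefty2 is low in Tet-TKO members (18.8 CPM) and high in WT host members (129 CPM), with 7.24 and 7.69 CPM in the other cells (7.29 and 12.2 CPM without extraembryonic cells), whereas Fgf8 is higher in Tet-TKO cells in and outside the members.

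Among FGF genes, 3 of the 16 compared were higher and none lower, with a median of 0.10. Fgf8 (ENSMUSG00000025219, chromosome 19, 45736798 to 45742915), the ligand of the streak, stood at 206 CPM (201 to 212) against 87.5 CPM (81.8 to 93.5), a log2 ratio of 1.24 (1.13 to 1.34). An Fgf8 UMI was found in 70.8% of members against 48.7% in the host, in 34.4% and 14.96% of ectoderm reference cells, and after thinning in 51.0% and 29.9% of members. Fgf5, a ligand of the epiblast, had 29.9 CPM against 12.2 CPM (1.29), and Spry2, a feedback inhibitor of FGF signalling, 52.4 CPM against 25.3 CPM (1.05). Fgf3 (99.2 and 91.8 CPM) and the receptor Fgfr1 (72.0 and 90.4 CPM) lay within the fold. Outside the members Fgf8 had 118 CPM against 30.1 CPM, and with extraembryonic cells left out 117 CPM against 43.9 CPM (log2 ratio 1.41). Each of the 3 higher genes fell inside the fold under at least 1 alternative, with lowest log2 ratios of 0.99 (Fgf8), 0.95 (Fgf5) and 0.75 (Spry2).

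Streak factors differed in both directions, and 4 pluripotency and epiblast genes were higher. T was alike, at 255 CPM against 229 CPM. Eomes, a T-box factor of early streak and mesendoderm, had 94.9 CPM against 49.3 CPM (0.95, 0.80 to 1.09), just inside the fold. Gsc, a homeobox gene of the anterior streak, had 24.6 CPM (22.7 to 26.6) against 6.86 CPM (5.33 to 8.70), a log2 ratio of 1.84 (1.48 to 2.22). Of the 15 streak and mesoderm transcription factors compared, Gsc was higher and Tbx6, Cdx1, Foxc1 and Foxc2 were lower, with a median of -0.16. Of 14 pluripotency and epiblast genes, 4 were higher and none lower, with a median of 0.42. They were Dppa5a (69.8 against 14.6 CPM), Dppa4 (15.2 against 4.14 CPM), Nanog (17.5 against 7.67 CPM) and Fgf5. Pou5f1, the core pluripotency factor, had 364 and 270 CPM. Dppa5a was also higher in the other Tet-TKO cells, at 68.4 against 17.3 CPM.

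Of 12 genes of paraxial mesoderm and segmentation compared, 6 were lower in Tet-TKO members (Tbx6, Hes7, Tcf15, Foxc1, Foxc2 and Aldh1a2). The other 6 lay within the fold and none was higher, with a median log2 ratio of -0.94. Over all features compared, 0.981% were higher and 1.87% lower. Tbx6, Foxc1 and Foxc2 were also counted among the streak and mesoderm transcription factors. The T-box factor Tbx6 (ENSMUSG00000030699, chromosome 7, 126781483 to 126785560), which is needed for paraxial fate, had 9.82 CPM (8.64 to 11.1) against 33.1 CPM (29.6 to 36.9). Foxc2 (chromosome 8, 121116171 to 121118895), a forkhead factor of mesoderm, had 12.3 CPM against 47.5 CPM. Tcf15, a helix-loop-helix factor of somites, had 15.2 CPM against 58.8 CPM. Aldh1a2, the enzyme that makes retinoic acid in mesoderm, had 19.6 CPM against 66.4 CPM. Their log2 ratios lay between -1.95 and -1.75. Tbx6 was detected in 13.5% of members against 29.6% in the host and in 0.370% and 0.440% of ectoderm reference cells, and after thinning in 4.49% and 16.1% of members. Foxc2 was found in 9.85% and 29.7% of members, and in 3.76% and 16.3% after thinning. Dll1 (25.8 and 40.5 CPM), Dll3 (54.4 and 84.4 CPM) and Mesp2 (11.0 and 12.3 CPM) lay within the fold, as did Cyp26a1, the enzyme that breaks down retinoic acid, with a log2 ratio of 0.33. Meox1 and Ripply2, genes of forming somites, were below the level filter, with 26 and 36 UMIs in Tet-TKO members and 87 and 90 UMIs in the WT host members.

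The promoters of 4 of these genes are shown because TET enzymes act at methylated CpG sites and the genes moved in both directions. In erythroid and other cells of such chimaeras, however, the paper reports TET-dependent demethylation at distal elements. It describes promoters as low in methylation in both genotypes, with negligible effects there. They cover 250 bases before to 50 bases after the start of Tdgf1 (chr9:110946109-110946408, minus strand) and Gsc (chr12:104473187-104473486, minus strand), which were higher, and of Tbx6 (chr7:126781233-126781532, plus strand) and Aldh1a2 (chr9:71215539-71215838, plus strand), which were lower. Sequences are from RefSeq on GRCm38.p6, 5′ to 3′, with each CG in capitals, and 4 of 8 genes searched had an entry.
Tdgf1: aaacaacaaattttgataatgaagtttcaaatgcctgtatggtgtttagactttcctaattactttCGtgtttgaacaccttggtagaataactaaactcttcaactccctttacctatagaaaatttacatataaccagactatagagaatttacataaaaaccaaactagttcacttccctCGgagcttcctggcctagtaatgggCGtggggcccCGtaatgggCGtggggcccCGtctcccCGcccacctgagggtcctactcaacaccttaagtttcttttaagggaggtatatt
Gsc: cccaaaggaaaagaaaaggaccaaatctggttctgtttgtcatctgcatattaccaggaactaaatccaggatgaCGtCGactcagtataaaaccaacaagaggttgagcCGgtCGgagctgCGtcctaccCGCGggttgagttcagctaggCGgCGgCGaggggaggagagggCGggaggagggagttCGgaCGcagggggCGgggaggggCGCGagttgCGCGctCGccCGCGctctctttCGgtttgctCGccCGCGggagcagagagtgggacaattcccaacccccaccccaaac
Tbx6: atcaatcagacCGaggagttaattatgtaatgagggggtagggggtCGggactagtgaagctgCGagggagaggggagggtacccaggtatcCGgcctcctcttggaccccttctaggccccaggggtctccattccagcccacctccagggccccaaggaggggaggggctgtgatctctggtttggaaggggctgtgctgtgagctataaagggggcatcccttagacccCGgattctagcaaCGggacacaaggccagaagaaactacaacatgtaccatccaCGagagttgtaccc
Aldh1a2: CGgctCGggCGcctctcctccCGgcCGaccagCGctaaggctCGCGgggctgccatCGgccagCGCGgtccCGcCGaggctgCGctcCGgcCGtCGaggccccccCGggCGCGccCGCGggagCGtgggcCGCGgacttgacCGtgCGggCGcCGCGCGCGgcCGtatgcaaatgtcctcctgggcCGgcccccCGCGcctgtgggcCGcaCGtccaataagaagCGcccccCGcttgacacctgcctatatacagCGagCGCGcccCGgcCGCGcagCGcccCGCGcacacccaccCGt
The number of CG was 7 in Tdgf1, 25 in Gsc, 7 in Tbx6 and 50 in Aldh1a2, against a median of 7 over 32851 promoters of this length. At least 25 CG were found in 18.4% of them and at least 50 in 0.855%. So 1 higher and 1 lower gene had the median number, and 1 of each had more. Methylation was not measured in these libraries.

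Cardiac genes split. Of the 15 genes of lateral plate, cardiac and extraembryonic mesoderm compared, Myl7 and Mef2c were lower and none was higher, with a median of -0.03. Myl7 (chromosome 11, 5896637 to 5898782), an atrial myosin light chain and early marker of heart cells, had 32.4 CPM (30.3 to 34.7) against 176 CPM (167 to 184), a log2 ratio of -2.44 (-2.56 to -2.31). Myl7 was detected in 25.6% of members against 47.0% in the host (13.7% and 29.6% after thinning), beside 18.9% and 23.0% of ectoderm reference cells. The Tet-TKO ectoderm cells were deeper than the Tet-TKO members, with medians of 23485 and 20147.5 UMIs, so their shares are not like for like. Within Tet-TKO members the Myl7 level also differed between those with and without T, as given below. The cardiac factor Mef2c had 4.06 CPM against 14.8 CPM. In contrast, Hand1 (209 and 206 CPM), Foxf1 (95.9 and 99.2 CPM), Gata6 (54.6 and 55.6 CPM) and Bmp4 (81.3 and 74.0 CPM), genes of lateral and extraembryonic mesoderm, differed by less than 0.15 on the log2 scale.

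The anterior Hox genes Hoxa2 and Hoxb1 had lower levels in Tet-TKO members, at 6.11 and 13.1 CPM and at 70.8 and 118 CPM. Cdx1, a caudal homeobox factor, had 22.8 and 59.7 CPM. Of 16 Wnt genes, the ligand Wnt3a (3.98 and 12.6 CPM) and the secreted inhibitor Sfrp1 (36.0 and 98.8 CPM) were lower and none was higher, with a median of -0.12. Wnt3, the ligand that acts at streak onset, had 28.7 and 14.6 CPM (0.97). Of 15 BMP genes, Id2 was lower (55.4 and 150 CPM) and none higher, with a median of 0.21. Its log2 ratio was -1.44 with all members, -0.60 without those that carried extraembryonic markers and -0.58 without marked doublets. Within the fold, the BMP genes Msx1 (0.75), Msx2 (0.81), Bambi (0.60) and Id1 (0.51) leaned higher. Bmpr1a (-0.01), Smad5 (-0.04) and Id3 (-0.03) were the other BMP genes with a negative ratio.

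None of the 12 genes of the epithelial-mesenchymal transition and adhesion compared passed the fold, and their median was -0.03. They lay on both sides, with the epithelial adhesion gene Epcam at 190 and 126 CPM (0.59), Cdh11 at 47.8 and 32.6 CPM (0.55), the keratin gene Krt8 at 257 and 189 CPM (0.45) and the repressor Zeb2 at 47.4 and 60.5 CPM (-0.35). Vim, an intermediate filament of mesenchyme, had 296 and 285 CPM, Fn1 (fibronectin) 197 and 235 CPM, Cdh2 (N-cadherin) 96.2 and 81.1 CPM and Cdh1 (E-cadherin) 16.99 and 20.6 CPM. Of 10 genes for migration receptors and ligands, Cxcl12 (13.8 and 6.16 CPM) and Pdgfa (97.3 and 48.2 CPM), both ligands, were higher and none lower, with a median of -0.07. Under at least 1 alternative each came inside the fold, with lowest log2 ratios of 0.99 (Cxcl12) and 0.70 (Pdgfa). Receptors of migrating mesoderm were within the fold, with Aplnr at 31.5 and 49.6 CPM and Cxcr4 at 11.6 and 16.6 CPM. The 7 dissociation and stress genes compared had none past the fold and a median of 0.24, among them Fos (47.5 and 32.6 CPM) and Jun (101 and 99.3 CPM).

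Of the definitive endoderm and axial list, 5 genes were compared, with Gsc higher, Cer1 and Spink1 lower and a median of -0.12. Spink1 had 4.26 and 151 CPM, and it stood at 1056 CPM in the other cells of the host library. Among 4 haemato-endothelial genes compared, Hbb-bh1, an embryonic globin, was lower (2 UMIs against 139 UMIs, a log2 ratio of -7.48, -10.53 to -5.59). Kdr, the VEGF receptor, had 22.8 and 17.9 CPM and Lmo2 11.5 and 21.6 CPM, and the median of the list was -0.49. Of the primordial germ cell list, only Ifitm3 reached the level, with 92.5 and 41.9 CPM.

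Tet1 and other genes of the methylation machinery were read in every library. Tet1 (chromosome 10, 62804570 to 62908996) had 10.4 CPM in Tet-TKO and 24.7 CPM in WT host members, Tet2 2.84 and 3.03 CPM and Tet3 8.00 and 13.4 CPM. Counts of 3′ ends cannot tell a full-length transcript from a disrupted one, so these levels do not check the knockout. The tdTomato transcript had 75.8 and 0.807 CPM. Besides tdTomato, which was higher, and Tet1, the glycosylase Tdg (41.4 and 84.0 CPM; log2 ratio from -1.20 to -0.89 over the alternatives, so not past the fold in each) was lower among the 8 compared, with a median of -0.31, while Dnmt1 (85.3 and 98.9 CPM) and Dnmt3b (213 and 200 CPM) lay within the fold. Of 17 imprinted genes, Snrpn (268 and 111 CPM) and Zdbf2 (103 and 38.05 CPM) were higher. H19 (53.9 and 146 CPM), Cdkn1c (66.5 and 152 CPM), Grb10 (62.9 and 129 CPM) and Nnat (59.2 and 123 CPM) were lower, and the median was 0.07. The 3 sex-linked genes compared were lower, Xist with 2.996 and 146 CPM, Ddx3y with 5.72 and 17.5 CPM and Eif2s3y with 6.43 and 18.0 CPM.

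**Figure D3:**
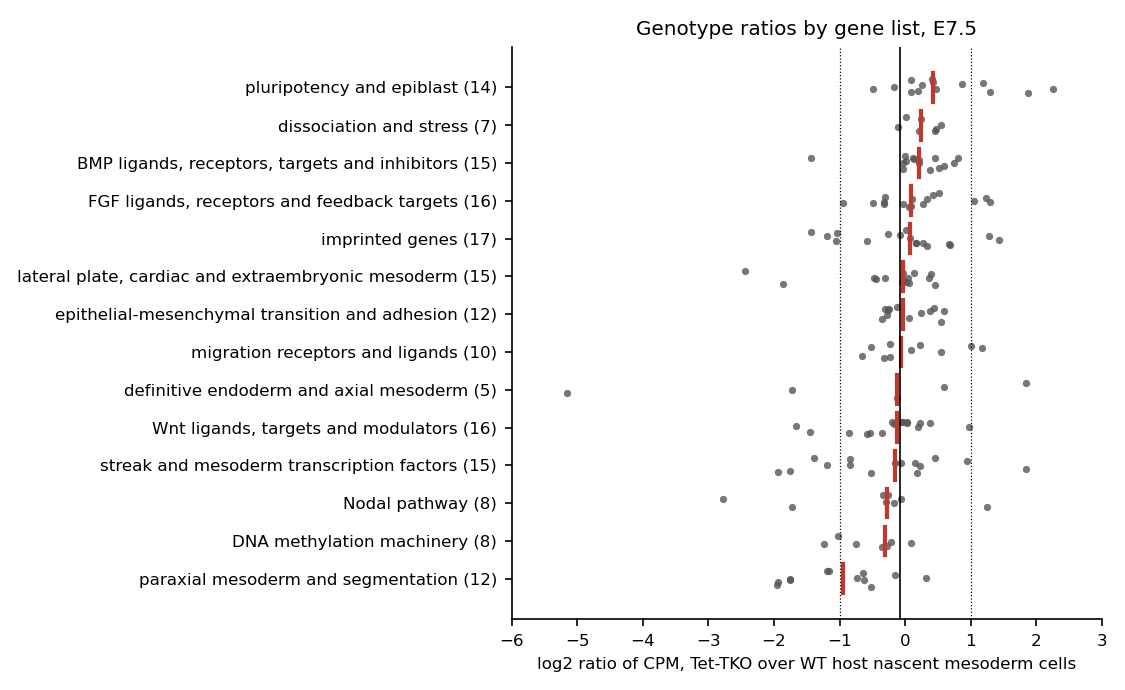
Log2 ratio of CPM, Tet-TKO over WT host nascent mesoderm cells (x axis), for each gene compared (grey points) in 14 lists (y axis, number compared in brackets), with the list median in red. The black line is the median of all features (-0.07), dotted lines mark a 2-fold ratio, and tdTomato lies off the scale and is not drawn. Among the 14 lists drawn, the median is lowest in the paraxial mesoderm list (-0.94) and highest in the pluripotency and epiblast list (0.42). The sex-linked list (median -1.61, 3 genes) and the primordial germ cell list (1.14, 1 gene) are among those not drawn.

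The genes with the largest ratios were mostly of other kinds. The 10 highest were tdTomato, Rps13-ps1, Defa30, Rps3a3, Gm10036, Rps15a-ps8, Gm15459, Pcna-ps2, Gm4742 and Zfp990. Rps3a3 had 4980 CPM in Tet-TKO and 267 CPM in WT host members, and Rps3a1 went the other way with 320 and 4527 CPM. How reads were assigned between this pair was not tested, and both values are uncertain. The 10 lowest were Hbb-bh1, Gm42047, Elf5, Xist, Ttr, Apom, Spink1, Apoa1, Rps3a1 and Rhox5, of which Ttr, Apoa1 and Apom are products of visceral endoderm and Elf5 is a factor of extraembryonic ectoderm. In the other cells without extraembryonic markers, 56 of the 73 higher genes and 97 of the 139 lower genes passed the fold in the same direction, and 1 of each had the opposite sign. In the streak set (T and Eomes or Mixl1 UMIs, no Mesp1 and no Etv2 UMI; 359 Tet-TKO and 400 WT host cells) these were 61 and 86, and 5 and 16 had the opposite sign. The share of all compared features past the fold in these cell sets is not given, so the counts lack a base rate. The cells also come from the same libraries as the members.

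Lefty2 was lower in Tet-TKO members with and without T and with each single partner gene, and Tbx6 in those with and without T. In members with a T UMI, Lefty2 had 20.3 and 160 CPM, a log2 ratio of -2.98 (-3.15 to -2.81). In those without a T UMI it had 13.8 and 87.3 CPM, a ratio of -2.66 (-3.04 to -2.30). In members with Mixl1 as the only partner gene (215 and 59 cells) it had 4.10 and 85.6 CPM, with Lhx1 alone 5.86 and 78.5 CPM, and with Snai1 alone 7.92 and 51.8 CPM. The streak set was low for Lefty2 in both genotypes, at 2.40 and 7.81 CPM. Tbx6 had ratios of -2.11 and -1.60 with and without T and -2.14 in the streak set. Myl7 was concentrated in members without T, with 81.5 and 332 CPM there against 18.6 and 61.9 CPM in those with T. Cdx1 had 27.1 and 97.8 CPM in members with T and 7.52 and 7.43 CPM in those without. Fgf8 ratios were 0.96 with T and 1.04 without. Whether the ratios of these groups differ was not tested.

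**Figure D4:**
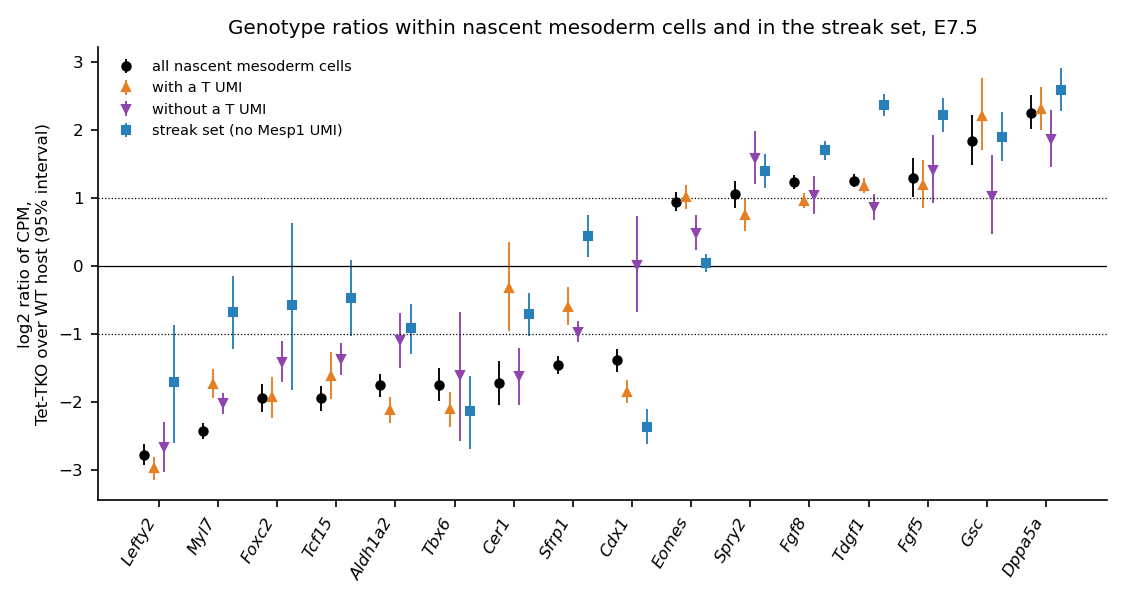
Log2 ratio of CPM, Tet-TKO over WT host (y axis), of 16 genes in all nascent mesoderm cells, in those with and without a T UMI and in the streak set, with exact 95% intervals of counting error. Dotted lines mark a 2-fold ratio, and Lefty2 lies below the lower line in all members (-2.78), with T (-2.98), without T (-2.66) and in the streak set (-1.70).

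Replicates existed only at E8.5, where cells passing the same rule were counted in 6 libraries, and the age differs from E7.5, so they are a separate population. They were 480, 246, 66 and 27 cells in Tet-TKO libraries 1 to 4 (6.81%, 2.58%, 2.86% and 2.67% of kept cells) and 131 and 47 cells in WT host libraries 1 and 2 (1.59% and 0.520%). Each Tet-TKO library lay above both WT host libraries, with means of 3.73% ± 2.06 (SD, n = 4) and 1.05% ± 0.754 (SD, n = 2). The two-sided exact permutation test gave p = 0.133, the smallest value this design allows. Depth differed, with a median of 18763, 12176, 40386.5 and 68704 UMIs per kept cell in Tet-TKO libraries 1 to 4. In WT host libraries 1 and 2 it was 15228 and 13663.5. The E8.5 shares were not thinned to equal depth, and extraembryonic cells were not left out of their totals. Summed over all deposited barcodes and not only these cells, Tet-TKO libraries 1 and 2 and libraries 3 and 4 formed like pairs. Their chi-square per degree of freedom was 14.2 and 16.97, against 162 to 178 for the other Tet-TKO pairs and 128 for the WT host pair. It was not stated whether a pair came from one pool of embryos, and p-values measure only the spread between these libraries.

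Of 10407 genes tested with edgeR's quasi-likelihood test, 0 (0%) were called higher and 2 (0.0192%) lower in Tet-TKO cells, while 803 had an unadjusted p under 0.05 and DESeq2 called 20 higher and 40 lower. The 2 genes were Xist (log2 fold change -6.37, SE 0.53, edgeR adjusted p = 0.00193) and Rps3a1 (-3.90, SE 0.18, edgeR adjusted p = 1.53e-05). Rps3a3 went the other way, with 4825, 4458, 4115 and 4134 CPM in Tet-TKO and 1352 and 189 CPM in WT host cells. How reads were assigned between this pair was not tested, and the call of Rps3a1 is uncertain. As a description, all 4 Tet-TKO libraries lay above both WT host libraries for 10.1% of tested genes and below both for 11.0%. Of the genes past the fold at E7.5, 67 higher and 125 lower ones were tested at E8.5. All Tet-TKO libraries lay on the same side as at E7.5 for 43 of the 67 (64.2%) and for 51 of the 125 (40.8%), and on the opposite side for 0 and 3 of them (Prrx2, Sfrp1 and Tshz1, named after their values were seen). Strain, ES line and the sex of that line are shared by the Tet-TKO libraries of both ages and cannot be told apart from genotype here. This limit holds for the call of Xist as well.

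At E8.5 the Fgf8 level was 186, 151, 157 and 152 CPM (Tet-TKO libraries 1 to 4) against 103 and 109 CPM (WT host), and the groups did not overlap (log2 fold change 0.62, SE 0.16, edgeR adjusted p = 0.213). Gsc had 6.20, 4.73, 3.04 and 6.46 CPM against 1.65 and 1.34 CPM, without overlap (1.71, SE 0.60, edgeR adjusted p = 0.493). Its WT host levels are near the floor and rest on very few UMIs, as the host cells held 2422832 and 745630 UMIs in all. Tbx6 had 13.7, 17.3, 16.2 and 19.8 CPM against 21.1 and 46.9 CPM, all below the WT host values (-0.92, SE 0.31, edgeR adjusted p = 0.451). None of these 3 genes passed the threshold, and 10.1% of all tested genes lay above and 11.0% below without overlap.

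Lefty2 was low and scattered at E8.5, with 4.23, 0, 7.43 and 22.6 CPM against 1.65 and 13.4 CPM, and the groups overlapped. Tdgf1 was found almost only in the first library of each genotype (16.2, 0, 0.338 and 0 CPM against 13.6 and 0 CPM). Foxc2 (14.4, 28.9, 31.4 and 22.1 CPM against 16.1 and 34.9 CPM), Tcf15 (18.8, 40.1, 73.6 and 102 CPM against 21.1 and 46.9 CPM) and Myl7 (23.9, 1.95, 157 and 12.9 CPM against 151 and 12.1 CPM) overlapped as well. Snrpn had 192, 190, 208 and 279 CPM against 89.98 and 77.8 CPM, without overlap (1.34, SE 0.18, edgeR adjusted p = 0.0169). Zdbf2 had 70.2, 79.9, 111 and 161 CPM against 30.5 and 32.2 CPM (1.72, SE 0.33, edgeR adjusted p = 0.0642). The imprinted genes that were lower at E7.5 overlapped between the groups at E8.5. Their log2 fold changes there were 0.65 (Cdkn1c), 0.61 (Nnat), -0.06 (H19) and -0.14 (Grb10), so Cdkn1c and Nnat had the opposite sign to E7.5. Over all tested genes, 10.1% lay above both WT host libraries in every Tet-TKO library and 11.0% below. In the 19 imprinted genes tested, 10 lay above in this way and 0 below, and in 14 haemato-endothelial genes 11 lay below and 0 above. Sums of blood, endothelial and yolk sac markers are given next, and many of these genes belong to that list themselves. All 6 endothelial markers do, as do Hba-x, Hbb-bh1, Hbb-y, Gata1 and Klf1 of the 7 erythroid markers. Those 2 sums are therefore not separate from the list. The 7 erythroid markers summed to 292, 41.2, 21.9 and 5.54 CPM in Tet-TKO libraries and 2199 and 11067 CPM in those of the host. Of the 7, 3 (Gata1, Alas2 and Klf1) were at 0 in Tet-TKO libraries 2 to 4. The embryonic globin Hba-x alone had 127, 14.2, 9.45 and 2.31 CPM against 1230 and 4804 CPM. The 8 visceral and yolk sac endoderm markers summed to between 8.10 and 17.8 CPM in the Tet-TKO libraries and to 1361 and 32.2 CPM in the others, and the 6 endothelial markers to between 35.8 and 57.3 CPM against 108 and 64.4 CPM. The part of blood and yolk sac cells in the count of 11 was not tested. In the paraxial list this was 1 of 15 below (Tbx6) and 0 above, and in the 9 pluripotency and epiblast genes tested it was 0 below and 0 above, with a median log2 fold change of -0.19.

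**Figure D5:**
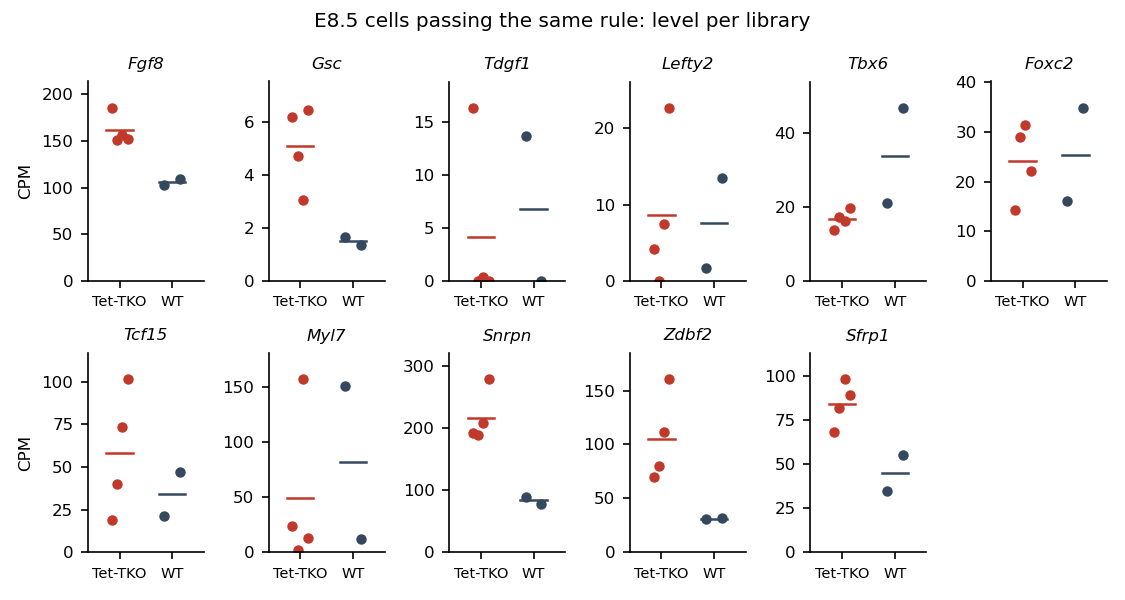
Level (y axis of each panel, CPM from 0) of 11 genes in E8.5 cells that pass the same rule, one point per library for Tet-TKO (red, n = 4) and WT host (dark blue, n = 2), with a line at the mean. Points do not overlap for Fgf8, Gsc, Tbx6, Snrpn, Zdbf2 and Sfrp1, and they overlap for Lefty2, Tdgf1, Foxc2, Tcf15 and Myl7. Of all tested genes, 10.1% lay above and 11.0% below in Tet-TKO without overlap.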

How the data were processed

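The authors aligned and counted 3′ droplet reads with Cell Ranger against mm10 with Ensembl gene models and a tdTomato sequence. The file headers give version 3.1.0, while the paper's methods name another version. The counts they deposited are unnormalised UMIs for each feature in each barcode. The 8 libraries hold 55422 features. Cells were kept by the UMI, mitochondrial and ribosomal limits given with the rule. The members and gene lists were chosen with earlier results of these data known. UMIs were summed over cells and scaled to CPM. At E7.5, genes with at least 10 CPM in 1 sum were compared, with exact Poisson, binomial and conditional 95% intervals (scipy 1.17.1). Named by rule were the rule genes, Lefty2, Fgf8, the Tet genes, tdTomato, in each list up to 4 genes by ratio and up to 4 by level, the 10 highest and 10 lowest ratios with at least 100 UMIs, and the 10 leading genes each way of members over other cells (at least 20 CPM). Other list genes were named after their values were seen. Scrublet (scanpy 1.11.5, 0.8% per 1000 barcodes) marked 92 Tet-TKO and 56 WT host members, which were left out only as an alternative. At E8.5, summed counts per library were tested with edgeR 4.0.16 (quasi-likelihood, adjusted p under 0.01 and at least 2-fold) and, as an alternative, DESeq2 1.42.0. The Hox list as a whole is not reported here. Scripts were tested on simulated data. Promoters came from RefSeq, GRCm38.p6, and gene positions from GENCODE on mm10.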

Additional observations from a re-analysis of the deposited data

Results flagged for a closer look

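The share of E8.5 cells passing the rule was 6.81% in Tet-TKO library 1, far from the other 3 Tet-TKO libraries (gap over range 0.932). In these cells library 1 also stood apart in Tdgf1 (16.2 CPM, 0.979), in Hba-x (127 CPM, 0.905) and in Fgf8 (186 CPM, 0.846), and library 3 in Myl7 (157 CPM, 0.859). By chance about 1 in 20 groups of 4 shows such a gap. Sfrp1, a secreted Wnt inhibitor, had a log2 ratio of -1.46 in E7.5 members (36.0 CPM in Tet-TKO, 98.8 CPM in WT host), while at E8.5 the 4 Tet-TKO libraries (68.1, 81.8, 98.2 and 89.5 CPM) all exceeded the 2 WT host libraries (35.1 and 55.0 CPM). The difference between the ages was not tested.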

How the results depend on the processing

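The Tet-TKO share of 24.3% became 20.1% thinned to 5000 UMIs, 25.5% in cells of at least 3000 UMIs, 14.3% with at least 2 partner genes, 18.7% with at least 2 Mesp1 UMIs and 39.6% without the Etv2 condition. The WT host share of 9.09% became 5.42%, 9.35%, 4.42%, 7.06% and 12.1% in the same order, 13.6% with extraembryonic cells left out of the total and 13.0% with such members left out too, which was added after the data had been seen. Genes past the fold at E7.5 (73 higher, 139 lower) were 121 and 236 at 5 CPM, 45 and 81 at 20 CPM, 923 and 2753 with no filter, and 120 and 199 after thinning. Of 54 named genes compared and past the fold, 45 stayed past it under each alternative and none changed sign. The other 9 were Cxcl12, Fgf5, Fgf8, Hoxa2, Id2, Pdgfa, Spry2, Tdg and Tdgf1. Fgf8 ranged from 0.99 to 1.37, Tdgf1 from 0.98 to 1.39 and Lefty2 from -2.97 to -2.64.

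Calls at E8.5 (0 higher, 2 lower by edgeR) were 20 and 40 with DESeq2, 76 and 166 with no filter on low counts, 1 and 16 with like Tet-TKO libraries summed, and 3 and 16 with tdTomato matched to the sort. With libraries 1 and 2 of each genotype, the replicate block gave 48 and 112 calls and the same 4 libraries without the block 20 and 40. The correlation of same-numbered deviations from the genotype mean was 0.121. With 2 libraries per genotype these deviations mirror each other, so both numbers give the same value. It is a single value and cannot show whether the libraries are paired. Embryos were pooled before sorting, and for cell type proportions the paper sets each Tet-TKO sample against a matching WT host. The labels link the libraries only by number, and the main test used no pairing. Leaving out 1 library gave 0 to 2 higher and 1 to 18 lower calls, with 18 lower without Tet-TKO library 1, 13 lower without WT host library 2, and 2 higher and 1 lower without WT host library 1, when Xist was no longer called. The cause was not tested. Without Tet-TKO library 4, the one with fewest cells (27), the counts were again 0 and 2.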
